A study of Mus musculus with 2 samples.

Results

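A set of 8 zinc finger transcription factor genes with early roles in adipogenesis was followed from the brown preadipocyte (D0) to the differentiated brown adipocyte (D7). The genes were picked by symbol: Zfp423, Zfp521, Zfp467 and Zfp516, which act in adipocyte commitment, and the Egr family, Egr1, Egr2, Egr3 and Egr4. All 8 symbols had a row with values, of 23361 rows with values in the deposited table.

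RNA-Seq had been performed on brown preadipocytes of newborn C57BL/6 mice, isolated from interscapular brown adipose tissue, to find the genes that change as these cells become adipocytes. There were 2 libraries, 1 per stage and therefore no replicates, so every error given here covers the counting of fragments only and no difference was tested across samples. Both stages were grown with 20% FBS and then held for 4 days in differentiation medium, which had 10% FBS and contained T3 at 1 nM and insulin at 0.1 μM. D7 cells had in addition received IBMX at 0.5 mM, dexamethasone at 2 μg/ml and indomethacin at 0.125 mM for 2 days, followed by the differentiation medium alone. These doses are those of the labels, and the study's methods give others for insulin and dexamethasone. The labels call the cells primary, whereas the methods describe immortalization with large T. Adipocyte genes separated the stages in the direction of their labels: Fabp4, a fatty acid binding protein, was 20.3 FPKM at D0 and 14391 FPKM at D7, and Adipoq, which encodes adiponectin, was 0.221 FPKM at D0 and 943 FPKM at D7. FPKM is the number of fragments per kilobase of transcript and per 1000000 mapped fragments, so it allows levels of different genes to be compared per length. Whole fragments could be recovered from these values, and they showed that each library had been divided by 21472000 fragments at D0 and 18266000 at D7.

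The Zfp factors and Egr factors bind DNA through C2H2 zinc fingers. Zfp423 is a commitment factor of preadipocytes that works with EBF and SMAD proteins, and Zfp521, its closest relative, opposes it and represses adipogenesis. Zfp467 favours the adipocyte over the osteoblast fate, and Zfp516 acts on brown adipocyte genes together with PRDM16 and LSD1. Egr genes are immediate early genes, switched on within minutes by growth factors and cAMP through SRF and its ternary complex partners, and their activity is restrained by the corepressors NAB1 and NAB2. Egr2, also called Krox20, promotes adipogenesis early after induction.

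Of the 8 genes, 7 were above 0 in both libraries. As deposited, Zfp423 alone passed a ratio of 2.0, the study's fold threshold, upward, and 0 of the 7 passed it downward. Across all 14986 genes above 0 in both libraries, 18.5% passed the threshold upward at D7 and 13.2% passed it downward, so 1 and 0 of 7 genes stood near or below those shares. Dividing each library by its median after a floor of 0.01 FPKM, which multiplies every D7 to D0 ratio by 0.783, changed these shares to 13.4% higher and 21.7% lower. On that scale, 0 of the 7 genes passed the threshold in either direction. The same scaling brings the deposited ratios of Klf5 and Klf15, 2.92 and 13.1, to the folds that the study printed for them. The ratio was above 1 for 3 of the 7 genes and below 1 for 4, and its 95% counting interval left out 1 for 5 of them. In bulk cultures, fewer cells of a type and less RNA per cell cannot be told apart.

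Zfp423 (ENSMUSG00000045333.15) lies on the minus strand at chr8:87661810-87959595 of GRCm38. Its level was 1.35 FPKM at D0, from 137 fragments, and 3.34 FPKM at D7, from 288 fragments. The D7 to D0 ratio was 2.47 (95% interval 2.01 to 3.05), so that even its lower bound lay above the fold threshold. That call was lost in the floor and median scaling, with a ratio of 1.94, and with a pseudocount of 1 FPKM, with 1.85. Zfp423 was thus the least abundant of the commitment factors in both libraries and the one with the greatest ratio of FPKM between D7 and D0.

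Zfp521 (ENSMUSG00000024420.9; minus strand, chr18:13687013-13972787), the antagonist, was far more abundant than Zfp423 at both stages. It had 8.55 FPKM at D0, from 1097 fragments, and 10.7 FPKM at D7, from 1165 fragments. The ratio of 1.25 (95% interval 1.15 to 1.36) was above 1 as deposited and 0.978 in the floor and median scaling, so its direction rested on how the libraries were scaled. The level of Zfp521 was 6.34 times that of Zfp423 at D0 and 3.20 times at D7. This balance does not depend on library scaling, and the Zfp423 to Zfp521 ratio of FPKM was 1.98 times as high at D7 as at D0 (95% interval 1.58 to 2.48). Parts of their coding sequences are alike: the closest 90-base windows, the length of a read, differed at 3 bases. The whole transcripts held 4818 windows of 90 bases for Zfp423 and 6117 for Zfp521. In all, 58 pairs of coding windows differed at 5 or fewer bases, the number of mismatches allowed in the study's methods. Reads from these stretches could have matched either gene, and how such reads were assigned is not given in the sources used here. An unclassified transcript annotated on the same strand, AC104328.1, also overlaps the span of Zfp521, introns included. Its overlap with exons was not examined.

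**Figure D1:**
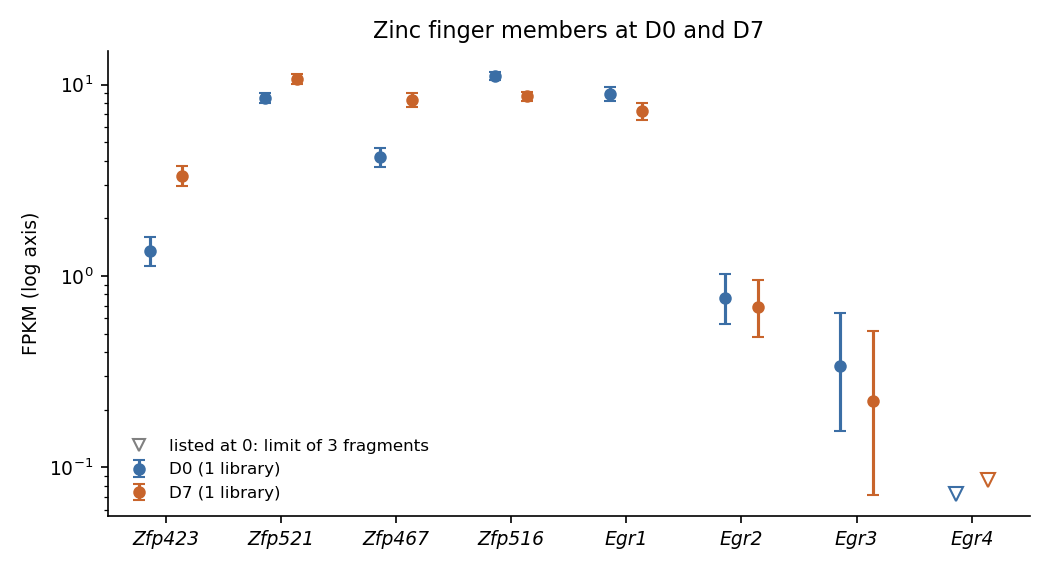
FPKM of the 8 genes on a log axis at D0 (blue) and D7 (orange), 1 library each. Bars are exact 95% Poisson intervals on the fragments, and open triangles mark what 3 fragments would give for Egr4, listed at 0. Zfp423 and Zfp467 show the clearest gap between the stages, and Egr2 and Egr3 have bars that overlap.

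Zfp467 (ENSMUSG00000068551.12; minus strand, chr6:48427697-48445825) was at 4.17 FPKM at D0 and 8.34 FPKM at D7. Its ratio of 1.999 fell just short of the threshold of 2.0, and the interval of 1.73 to 2.31 held the threshold. About 308 and 523 fragments lay behind these values, as an approximation, because no annotated transcript length gave whole fragments in both libraries. Zfp467 and Zfp423 were both higher at D7, and the change of Zfp467 relative to Zfp423 was 0.809 (95% interval 0.626 to 1.04), an interval that held 1.

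Zfp516 (ENSMUSG00000058881.13; plus strand, chr18:82910663-83005314) was the only commitment factor with a lower FPKM at D7 as deposited. Its level was 11.1 FPKM at D0 and 8.69 FPKM at D7, from about 1804 and 1197 fragments, again an approximation. The ratio was 0.780 (95% interval 0.725 to 0.840), a 1.28-fold lower level that did not reach the fold threshold. A transcript on the opposite strand, AC142100.4, overlaps the span of Zfp516, introns included. Whether it overlaps exons of Zfp516 was not examined. The study's library protocol degraded the second cDNA strand, which keeps strand, but whether counting used strand is not stated. Without it, reads of this transcript from any stretch shared with Zfp516 exons could not be told apart from those of Zfp516.

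Among themselves, the commitment factors stood in different proportions at the 2 stages. Zfp516 made up 44.2% of their summed FPKM at D0 and 28.0% at D7, whereas Zfp467 made up 16.5% at D0 and 26.8% at D7. The share of Zfp423 was 5.35% at D0 and 10.7% at D7, and that of Zfp521 was 33.9% at D0 and 34.4% at D7. At D0 Zfp516 was 2.67 times as abundant per length as Zfp467, and at D7 the pair were nearly level at 1.04 times. Relative to Zfp516, the FPKM of Zfp423 was 3.17 times as high at D7 as at D0 (95% interval 2.54 to 3.96), that of Zfp467 2.56 times (2.18 to 3.01) and that of Zfp521 1.60 times (1.43 to 1.79). These were among 7 pairs compared, and none of the intervals was adjusted for that number.

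**Figure D2:**
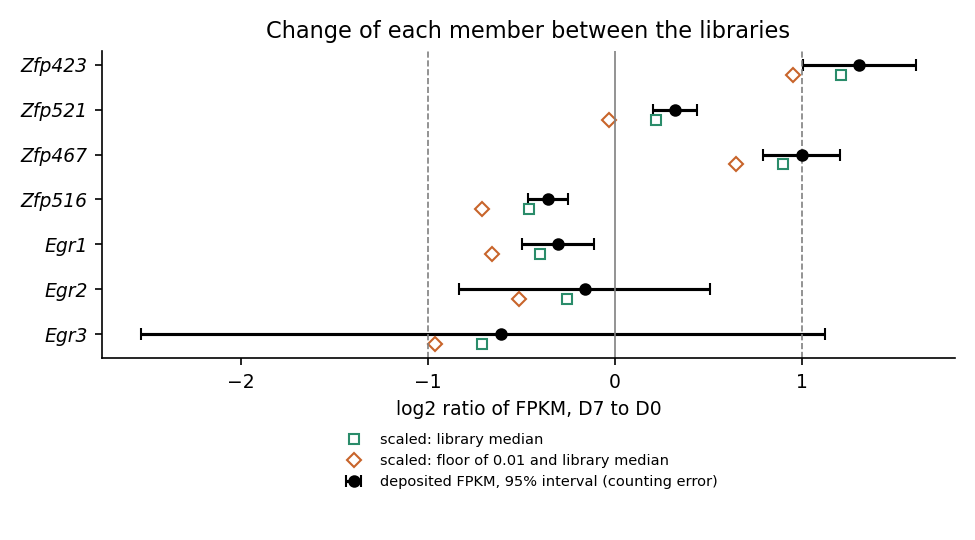
Log2 ratio of FPKM, D7 to D0, for the 7 genes above 0 in both libraries. Black points are deposited values with 95% counting intervals, and squares and diamonds are the same ratios after each alternative scaling. Dashed lines mark the 2.0-fold threshold, which only the Zfp423 point passed, and the Zfp521 diamond lies to the left of 0.

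Egr1 (ENSMUSG00000038418.7; plus strand, chr18:34859823-34864984) was the dominant Egr gene. It had 8.98 FPKM at D0, from 558 fragments, and 7.27 FPKM at D7, from 384 fragments. The ratio was 0.810 (95% interval 0.709 to 0.924), 1.23-fold lower and within the fold threshold. The deposited locus of Egr1 began at 34861207, after the annotated start at 34859823, so its value does not cover the upstream end. Egr1 accounted for 89.0% of the summed FPKM of the Egr family at D0 and 88.9% at D7, so its own share was nearly the same at both stages. Changes among the minor Egr genes, which rested on few fragments, were not resolved. Relative to Zfp423, the FPKM of Egr1 at D7 was 0.327 times that at D0 (95% interval 0.255 to 0.420): Egr1 was 6.66 times as abundant as Zfp423 at D0 and 2.18 times at D7.

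Egr2 (ENSMUSG00000037868.15; plus strand, chr10:67535475-67542188) was far below Egr1 in both libraries, at 0.769 FPKM at D0, from 46 fragments, and 0.689 FPKM at D7, from 35 fragments. Its ratio of 0.895 had an interval of 0.560 to 1.42, so a change in either direction was not detectable at this depth. The change of Egr1 relative to Egr2 was likewise unresolved, at 0.904 (95% interval 0.558 to 1.48). Egr3 (ENSMUSG00000033730.4; plus strand, chr14:70077203-70082614) was lower still, at 0.339 FPKM from 9 fragments at D0 and 0.222 FPKM from 5 fragments at D7. With a ratio of 0.655 and an interval of 0.172 to 2.18, Egr3 could not be placed on either side of 1. The deposited locus of Egr3 ended at 70080157, before the annotated gene end at 70082614, so the far 3′ part of the gene was not in its value. That of Egr2 began at 67537869, after the annotated start at 67535475, so upstream exons of other Egr2 transcripts were not in its value. Egr4 (ENSMUSG00000071341.4; minus strand, chr6:85511121-85513589) was listed at 0 in both libraries, where a limit of 3 fragments, narrower than the two-sided intervals used for the other genes, would be 0.0727 FPKM at D0 and 0.0856 FPKM at D7. No ribosomal protein gene of 75 was listed at 0 in either library.

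Because so few fragments stood behind Egr2, Egr3 and Egr4, the likeness of the coding sequences of the Egr genes was examined over windows of 90 bases. No window pair of the Egr family came within 5 mismatches, the number allowed in the study's methods. The closest pair, Egr3 and Egr4, differed at 6 bases. At that limit and without gaps, a 90-base read from the coding sequence of one Egr gene would not align to that of another. The submitters' processing notes name another aligner, Bowtie2, and alignment under its rules was not tested. Over the whole transcripts, no gene of the 8 held a 90-base stretch that occurred unchanged in another gene.

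The promoters of Egr2, which had fragments in both libraries, and of Egr4, which had none, are shown as the 250 bases before the RefSeq start site in GRCm38.p6. Promoter sequence was at hand for 4 of the 8 genes (Zfp423, Zfp467, Egr2 and Egr4). Capitals mark the CArG box, the binding element of SRF with an A/T core between CC and GG, and CGTCA, a cAMP response element core, on either strand. The Egr2 window is on the plus strand at chr10:67537619-67537868, and that of Egr4 on the minus strand at chr6:85513590-85513839.
Egr2: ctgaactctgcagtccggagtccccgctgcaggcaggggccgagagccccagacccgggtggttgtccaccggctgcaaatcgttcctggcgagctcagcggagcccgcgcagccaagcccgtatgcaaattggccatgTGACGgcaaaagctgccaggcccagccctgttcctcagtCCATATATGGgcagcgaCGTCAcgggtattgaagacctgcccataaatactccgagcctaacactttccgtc
Egr4: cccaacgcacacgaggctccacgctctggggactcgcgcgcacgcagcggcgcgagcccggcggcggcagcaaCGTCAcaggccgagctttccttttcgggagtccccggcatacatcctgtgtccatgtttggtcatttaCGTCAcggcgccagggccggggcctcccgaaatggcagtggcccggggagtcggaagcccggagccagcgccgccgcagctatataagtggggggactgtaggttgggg
RefSeq gave 5 start sites for Egr2, and the one shown is where the deposited locus begins. This Egr2 window held a CArG box that began 72 bases before the start site, and CGTCA matches at 111 and 55 bases. Among the other Egr2 windows, that of start site 67535499, near the annotated gene start, held neither motif, and that of 67537566 held a CArG box but no CGTCA. The Egr4 window held CGTCA at 177 and 109 bases and no exact CArG box. Near matches were not counted, and this window holds ccatgtttgg, which has a g in its core. Of 32851 promoter windows of this length, 1.47% held a CArG box and 17.8% held CGTCA on either strand. The full palindrome TGACGTCA, which contains CGTCA, was in 1.55% of windows and in neither of these. The Egr sites GCGTGGGCG and GCGGGGGCG, present in 0.536% and 2.57% of windows, were in none of the windows of the 4 genes. The windows of Zfp423 and Zfp467 held none of the motifs searched. A match describes letters in a window and says nothing of binding.

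Genes that act on the Egr factors were next counted, in lists of known partners. Of 10 corepressor and upstream genes, 0 passed the threshold upward at D7 and 3 downward, with a median log2 ratio of −0.40 beside 0.015 for all genes. The shares of all genes past it were 18.5% upward and 13.2% downward. Nab2, the corepressor that Egr proteins themselves induce, was 53.0 FPKM at D0 and 16.1 FPKM at D7, a ratio of 0.303 (95% interval 0.277 to 0.331). Its paralog Nab1 took the opposite direction, at 8.82 FPKM at D0 and 17.0 FPKM at D7, with a ratio of 1.92 (1.74 to 2.12). At D7 the NAB genes were thus at similar levels per length, although Nab2 had been well above Nab1 at D0. The other genes past the threshold were Elk3, a ternary complex factor, with a ratio of 0.352 (25.8 to 9.08 FPKM), and Srf itself, with 0.470 (17.95 to 8.44 FPKM). The kinases of the ERK cascade stayed within 2.0-fold.

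The ratio of Egr1 was nearer to 1 than those of several other immediate early genes. Of 25 such genes, 1 passed the threshold upward at D7 and 8 downward, beside 18.5% and 13.2% of all genes. Their median log2 ratio was −0.55, compared with −0.30 for Egr1. The orphan receptor Nr4a1 was 30.7 FPKM at D0 and 3.44 FPKM at D7, a ratio of 0.112 (95% interval 0.0937 to 0.133). Junb, an AP-1 subunit, had a ratio of 0.257 (37.9 to 9.74 FPKM), and Nr4a3 and Nr4a2 had 0.205 and 0.343. Fos, an AP-1 gene that shares SRF control with Egr1, had a ratio above 1, at 1.73 (2.60 to 4.50 FPKM). Atf3, a stress response factor, was the gene above the threshold, with 2.26 (1.97 to 4.46 FPKM). With a pseudocount of 1 FPKM the counts became 0 higher and 5 lower.

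Partners of the commitment factors were mixed. In the EBF and SMAD list of 16 genes, 2 passed the threshold upward and 2 downward, with a median log2 ratio of 0.010. These counts, 12.5% each way, stood near or below the 18.5% and 13.2% of all genes. Ebf1, which activates adipogenic genes and is bound by both Zfp423 and Zfp521, was 11.8 FPKM at D0 and 32.3 FPKM at D7, a ratio of 2.75 (95% interval 2.48 to 3.05). Its relative Ebf2, a brown fat selector, had a ratio of 1.68 (5.80 to 9.73 FPKM) and did not pass. Smad9, a BMP effector, had a ratio of 2.83 (0.727 to 2.06 FPKM), whereas the BMP receptor gene Bmpr1b had 0.0928 (7.90 to 0.733 FPKM) and Ebf4 had 0.298 (1.40 to 0.418 FPKM). Of 16 genes for NuRD, PRDM16 and LSD1 cofactors, 0 passed the threshold in either direction as deposited, and their median log2 ratio was −0.45. The lowest ratios were those of Hdac1 (0.617), Mbd3 (0.634) and Kdm1a (0.636). In the floor and median scaling each of these would fall below 0.5, so the count of 0 rested on how the libraries were scaled. Prdm16, the brown fate coregulator that Zfp516 binds, was 0.835 FPKM at D0 and 1.02 FPKM at D7, with an interval of the ratio from 0.965 to 1.53. By qPCR, the study reported Prdm16 as upregulated at D7. It also compared RNA-Seq and qPCR folds of brown specific genes and described their patterns as similar. Kdm1a, which encodes LSD1, had a ratio of 0.636 (28.7 to 18.2 FPKM), on the same side of 1 as Zfp516 and most of this list.

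**Figure D3:**
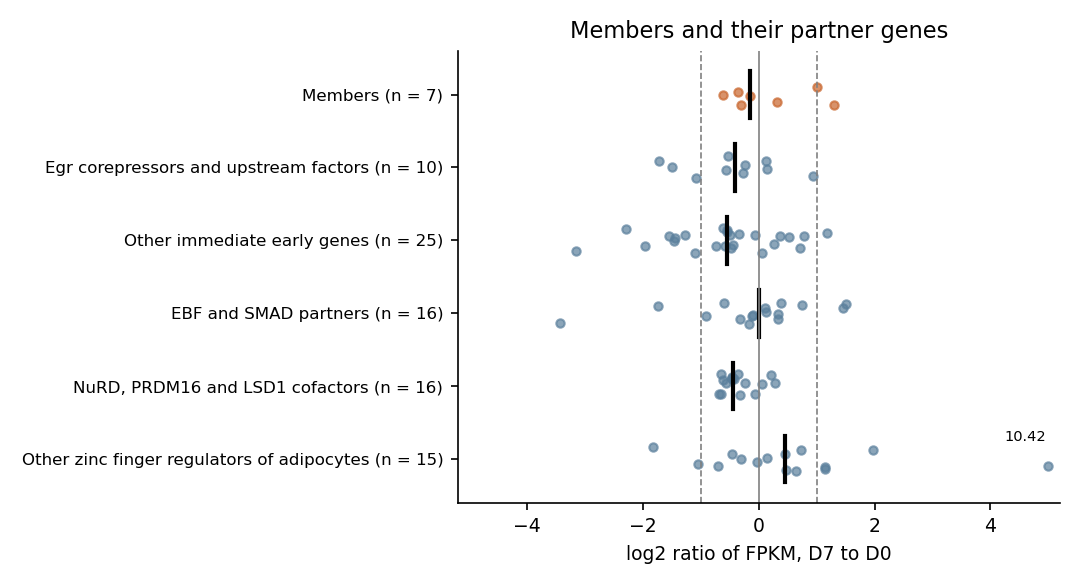
Log2 ratio of FPKM, D7 to D0, for the 7 genes above 0 in both libraries (top row) and for each partner list, 1 point a gene, with list medians as black bars and the 2.0-fold threshold as dashed lines. Zbtb16 lies beyond the axis and is drawn at its right edge with its value, 10.42. The 7 genes lie between the low values of the immediate early list and the high values of Ebf1 and Smad9.

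The genes that follow the early factors in adipogenesis differed far more between the stages. Of 14 genes of this cascade, 12 were above 0 in both libraries, with a median log2 ratio of 4.34. Of the 12, 10 passed the threshold upward and 0 downward, beside 18.5% and 13.2% of all genes. Cidea and Ucp1 were listed at 0 at D0 and had 24.4 and 4.57 FPKM at D7. The exceptions were the early C/EBP genes: Cebpb, a target through which Egr2 acts, had a ratio of 0.650 (47.5 to 30.9 FPKM) and Cebpd one of 0.998 (36.5 to 36.4 FPKM). Like Cebpb and Cebpd, every gene of the 7 other than Zfp423 had a deposited ratio within 2.0-fold. The counting intervals of Zfp467 (1.73 to 2.31) and Egr3 (0.172 to 2.18) reached past that threshold.

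The 8 genes were also set beside 15 other zinc finger regulators of adipocytes, with a median log2 ratio of 0.45. Of these, 4 (26.7%) passed the threshold upward and 2 (13.3%) downward, beside 18.5% and 13.2% of all genes. Zbtb16, also called PLZF, was 0.00944 FPKM at D0, from 1 fragment, and 12.9 FPKM at D7, from 1166 fragments, a ratio with a counting interval of 246 to 54217. Zfp395 and Zbtb20 both had ratios of 2.20, and Gata2, a repressor of adipogenesis, had 0.281 (10.4 to 2.92 FPKM). Under a pseudocount of 1 FPKM, 1 gene remained above the threshold and 1 below it.

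Most genes with a Zfp symbol differed little between the stages, which gave a frame for the ratios of the commitment factors. Of 308 other Zfp genes above 0 in both libraries, 8.77% passed the threshold upward and 5.19% downward, beside 18.5% and 13.2% of all genes. Their median log2 ratio was 0.022. Only 15 of the 308 had a higher ratio than Zfp423, and 27 had a higher ratio than Zfp467. Zfp521 was exceeded in ratio by 104, and Zfp516 had a lower ratio than 240. By level, Zfp516 and Zfp521 were in the upper range of the family: 25 of the 308 had more FPKM than Zfp516 at D0 and 28 had more than Zfp521 at D7, where the median of the family was 2.46 FPKM at D0 and 2.56 FPKM at D7. Zfp423 was exceeded in FPKM by 214 of them at D0 and by 123 at D7.

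**Figure D4:**
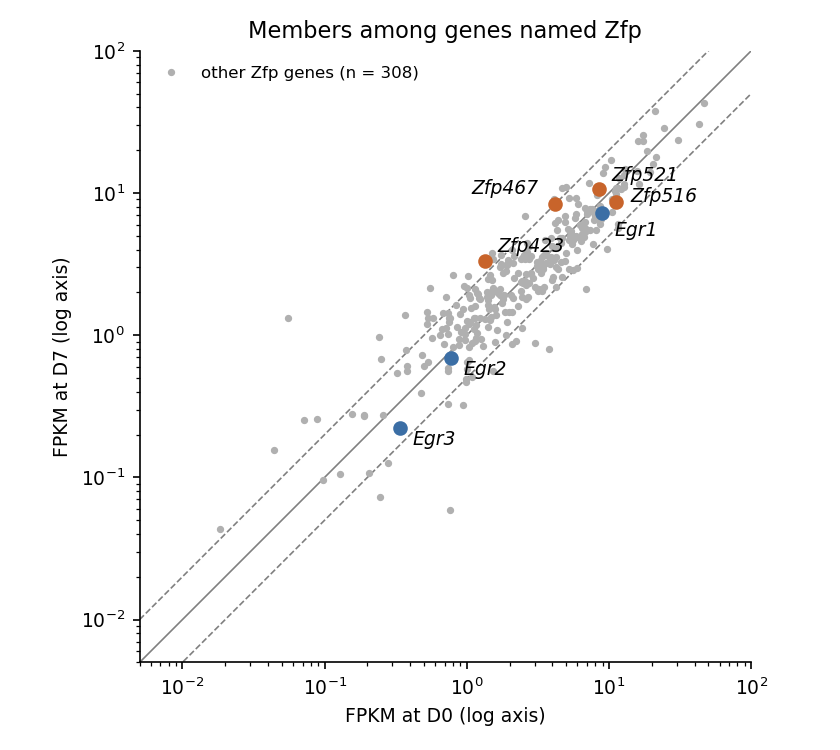
FPKM at D7 against FPKM at D0, both on log axes, for 308 other Zfp genes (grey), the 4 commitment factors (orange) and the 3 Egr genes above 0 (blue). The solid line marks equal values and dashed lines a 2.0-fold difference. Zfp423 lies above the upper dashed line and Zfp467 on it.

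For each gene, the Zfp gene with the most similar values over the 2 libraries was found by distance on the log2 FPKM scale. Zfp423 was nearest to Zfp758 (1.52 FPKM at D0 and 3.45 FPKM at D7, distance 0.175), and Zfp467 to Zfp395 (4.11 and 9.04 FPKM, distance 0.119). Zfp521 was nearest to Zfp191, Zfp516 to Zfp259, Egr1 to Zfp46 and Egr2 to Zfp418, each at a distance under that of Zfp423. Egr3 had no close neighbour, the nearest being Zfp619 at a distance of 0.501.

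The order of levels per length also differed between the stages. At D0 Zfp516 had the most FPKM, followed by Egr1 and Zfp521, whose 95% intervals of 8.25 to 9.76 and 8.06 to 9.08 FPKM overlapped. At D7 Zfp521 had the most, followed by Zfp516 and Zfp467 with overlapping intervals of 8.20 to 9.19 and 7.63 to 9.08 FPKM, and Egr1, whose interval of 6.56 to 8.04 FPKM overlapped that of Zfp467. Zfp423, Egr2, Egr3 and Egr4 closed the order in both libraries, and the intervals of Egr2 and Egr3 overlapped in each.

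Some cell types other than adipocytes also express these genes, so their markers were summed. For comparison, 18.5% of all genes passed the threshold upward and 13.2% downward. Macrophage markers summed to 140 FPKM at D0 and 488 FPKM at D7, and 7 of 7 passed the threshold upward. Schwann cell markers, of interest because Egr2 drives myelination, summed to 5.76 FPKM at D0 and 12.6 FPKM at D7, with 5 of 6 past it upward. Mural cell markers summed to 2356 FPKM at D0 and 395 FPKM at D7, with 2 of 7 higher and 4 of 7 lower. Acta2 gave most of both sums, at 2164 FPKM at D0 and 319 FPKM at D7. Preadipocyte markers summed to 1290 FPKM at D0 and 822 FPKM at D7, with 2 of 6 higher and 2 of 6 lower. Thy1 (657 FPKM at D0 and 308 FPKM at D7) and Ly6a (546 and 405 FPKM) gave most of these sums. The part of these cells in the values of the 8 genes was not tested. Endothelial markers summed to 1.62 and 2.69 FPKM with Tie1 at 0 in both libraries, and T cell markers to 0.295 and 0.0873 FPKM. Of the muscle precursor markers, which summed to 5.76 and 3.09 FPKM, Myf5, Myod1 and Pax7 were at 0 in both libraries.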

How the data were processed

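The authors isolated total RNA, sequenced 1 library per stage on an Illumina sequencer, removed duplicate reads and deposited FPKM values per gene. Alignment to mm10 is credited to SOAP2 in the study's methods and to Bowtie2 in the submitters' processing notes. Of 27324 rows, 23361 held values, and 3963 without values were not used. The ratio of D7 to D0 FPKM was taken without a pseudocount, and called at 2.0 or 0.5. Fragments were recovered from single-exon genes, where a length shortened by 179 (D0) or 182 bases (D7) made 100% of low values whole within 0.1. Gene lengths and coordinates came from GENCODE M21 (GRCm38), and counting intervals were exact (Clopper-Pearson or Poisson, 95%, scipy 1.17.1). The recovery and intervals were tested on simulated data. No p-value can be given with 1 library per stage. Named genes were all 8 genes, up to 4 per list past the fold with at least 1 FPKM and the largest log2 ratio, other list genes where a sentence needed them, and the nearest Zfp gene. The 8 genes and all lists were chosen with earlier results of these data known. Some coding sequences of these genes are not reported here.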

Additional observations from a re-analysis of the deposited data

How the results depend on the processing

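A total of 8 alternatives of scaling, pseudocount or summed rows were run for each ratio. Under a floor of 0.01 FPKM with library median scaling, which lowers every log2 ratio by 0.35, the ratio was 1.94 for Zfp423, 0.978 for Zfp521, 1.57 for Zfp467, 0.611 for Zfp516 and 0.634 for Egr1, and 0 genes were higher by at least 2.0-fold. With a pseudocount of 1 FPKM the ratio of Zfp423 was 1.85 and 0 genes were higher. With a fold of 4.0, 0 genes were higher, and with a fold of 1.5, 2 were higher and 1 was lower. Over all alternatives the ratio ranged from 0.701 to 0.955 for Egr2 and from 0.513 to 0.913 for Egr3. None of these alternatives could have moved a ratio from below 1 to above it, so the ranges say nothing of direction. The counting intervals of both genes held 1. The list counts were rerun only with library median scaling, a pseudocount of 1 FPKM and a minimum of 1 FPKM in a library. Of these 36 counts, 30 were within 1.5 times the value as deposited and 6 moved, each with a pseudocount of 1 FPKM. The floor and median scaling, which moves every ratio further down than library median scaling alone, was not run for the list counts. Their stability on that scale is therefore not known from these counts. No paired analysis was possible because each stage had 1 library, and no library could be left out. Depth limits Egr2, Egr3 and Egr4, and the spread between cultures is unknown.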
